A study of Mus musculus with 6 samples.

Results

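Complement is a set of plasma and cell-derived proteins that tag surfaces for removal and draw in leukocytes. The 9 complement genes C1qa, C1qb, C1qc, C3, C4b, Cfb, Cfp, C3ar1 and C5ar1 were followed here across every library of a mouse lung RNA-Seq experiment. They were chosen as a named list of components, a regulator and receptors, with earlier results of these data known. Counts of the 9 genes set beside shares of all genes are thus description. All 9 were found by name among the 49315 genes of the count table. Male C57BL/6 mice (C57BL/6J by the methods of the study) had received sterile saline (sham) or bleomycin sulfate (BLM), a DNA-damaging drug that scars the lung, by oropharyngeal instillation, and lungs were taken 21 days later. The sources used here name no other allele or agent and do not give the age of these mice. Within a group, 2 to 3 lungs were combined in each tube and dissociated. Cells were then either left unsorted or sorted by surface Lamp1, a lysosomal membrane protein that the study examined as a surface marker of senescent cells, into Lamp1-depleted and Lamp1-enriched fractions. Each of the 6 conditions (sham or BLM, by unsorted, Lamp1-depleted or Lamp1-enriched) is 1 library.

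In the classical pathway, C1q, a protein assembled from the A, B and C chains encoded by C1qa, C1qb and C1qc, binds immune complexes and dying cells, and the activated C1 complex cleaves C4 and C2. The alternative pathway runs from C3 with factor B (Cfb) and is sustained by properdin (Cfp), the protein that stabilises its C3 convertase. Cleavage of C3 and C5 releases the small peptides C3a and C5a, which act on leukocytes through C3ar1 and C5ar1. Unlike most complement proteins, which are made mainly by the liver, C1q is made chiefly by macrophages and dendritic cells. In the lung, fibroblasts and epithelial cells are also known sources of C3 and other components.

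The 3 C1q chain genes lie side by side on chromosome 4, within 18.7 kb and all on the minus strand (GRCm38): C1qb at chr4:136880129-136886187, C1qc at chr4:136889804-136893065 and C1qa at chr4:136895917-136898803. C4b (chr17:34728380-34743882) and Cfb (chr17:34856374-34862518) lie in the class III region of the major histocompatibility complex, and C3 (chr17:57203970-57228136) is farther along the same chromosome. Cfp is X-linked (chrX:20925454-20931555), C3ar1 is at chr6:122847138-122856161 and C5ar1 at chr7:16246743-16259540. RefSeq promoter windows (GRCm38.p6, 250 bases before the RefSeq start) were found for 6 of the 9 genes (C1qb, C1qc, C3, Cfp, C3ar1 and C5ar1). They were searched on both strands for 5 motifs: GAGGAA (the core of the box bound by PU.1, a transcription factor of myeloid cells), TTGCGCAA (a C/EBP palindrome), TTCNNNGAA (a STAT core), TATAAA (the TATA box) and the letters of the box named CCAAT. The PU.1 core was present in 2 of the 6 windows, those of C1qb and C1qc, and in 23.3% of 32851 such windows of all genes. The letters TATAAA occurred in the window of C3ar1, beginning 235 bases before its RefSeq start (12.4% of all windows held them). The CCAAT letters occurred in that of C5ar1, beginning 158 bases before its RefSeq start (33.8% of all windows). These are matches of letters only. The C/EBP and STAT letters occurred in 0 of the 6 (0.164% and 7.02% of all windows). Of the 250 bases of the C5ar1 window, 202 lie inside the annotated (GENCODE M21) gene, and its CCAAT match fell among these. None of these matches overlapped another.

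The windows of C1qb, C1qc and C3ar1 are shown because these genes had some of the largest BLM-over-sham ratios of the experiment and nearly the same pattern over the 6 libraries. Each is written 5′ to 3′ on the gene's own (minus) strand, in lower case, with GAGGAA or its reverse complement in capitals. The C1qb sequence is chr4:136886201-136886450, the C1qc sequence is the stretch chr4:136893066-136893164 upstream of the annotated gene, and the C3ar1 sequence is chr6:122856162-122856407.
C1qb: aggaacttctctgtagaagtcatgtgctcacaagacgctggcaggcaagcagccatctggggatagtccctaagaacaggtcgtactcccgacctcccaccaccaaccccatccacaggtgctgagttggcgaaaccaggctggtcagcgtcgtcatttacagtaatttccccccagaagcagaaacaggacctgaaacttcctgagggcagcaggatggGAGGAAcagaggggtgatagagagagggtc
C1qc: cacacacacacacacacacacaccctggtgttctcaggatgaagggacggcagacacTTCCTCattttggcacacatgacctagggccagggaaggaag
C3ar1: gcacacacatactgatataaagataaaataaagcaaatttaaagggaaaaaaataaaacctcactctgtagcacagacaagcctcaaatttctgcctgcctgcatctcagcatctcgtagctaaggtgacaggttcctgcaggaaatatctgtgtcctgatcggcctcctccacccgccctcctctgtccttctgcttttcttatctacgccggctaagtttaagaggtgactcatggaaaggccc
The match began 43 bases before the annotated (GENCODE M21) start of C1qb and 42 bases before that of C1qc, on opposite strands, and the C3ar1 sequence held none. These letters describe the windows, and no binding was measured.

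The libraries held 30236120 to 52918696 counted reads, of which the 9 genes took 0.00871% to 0.0860%. Values are given in CPM, a gene's reads relative to the total of its library after TMM scaling, which sets most genes to a common level across libraries. The BLM Lamp1-depleted library stood apart: Gm26917, a single noncoding RNA gene, took 38.4% of its reads against 0.884% to 7.10% in the other 5, and its scaling factor was 0.699 against 0.993 to 1.19. Lamp1 mRNA was at 491 CPM in sham Lamp1-enriched and 146 CPM in sham Lamp1-depleted cells, and at 378 and 111 CPM in the BLM pair. In unsorted cells it was at 319 CPM in sham and 501 CPM in BLM, the latter above both sorted BLM libraries. Of 72 marker genes of 13 lung and blood cell types, 1 neutrophil marker was at 0 in 1 library and all other values were above 0. In libraries of mixed cells, fewer cells of a type and less RNA per cell cannot be told apart. With 1 library per condition, a log2 ratio between 2 libraries carries a 95% interval for counting error only, and a gene was counted as higher or lower when the ratio reached 2-fold.

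The C1q chains and C3ar1 were low in every sham library and higher in every BLM library. C1qa was at 2.74 CPM in sham unsorted, 1.32 in sham Lamp1-depleted and 1.26 in sham Lamp1-enriched cells, and at 105, 11.6 and 17.1 CPM in the BLM libraries in the same order. C1qb was at 3.85, 1.38 and 1.87 CPM in the sham libraries and at 139, 20.0 and 23.4 CPM in the BLM libraries. C1qc was at 1.52, 0.614 and 0.695 CPM in the sham libraries and at 55.0, 7.05 and 10.1 CPM in the BLM libraries. For each chain the lowest BLM library lay above the highest sham library, and the BLM unsorted library was the highest of the 6. In unsorted cells the BLM-over-sham log2 ratio was 5.25 for C1qa (95% counting interval 5.01 to 5.51), 5.16 for C1qb (4.96 to 5.39) and 5.16 for C1qc (4.84 to 5.53), which is 38.0-, 35.9- and 35.8-fold. These ratios ranked 34, 40 and 41 from the highest of 22772 genes, those that reached 10 reads in either library. The interval of each chain covered the ratios of the other chains.

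**Figure D1:**
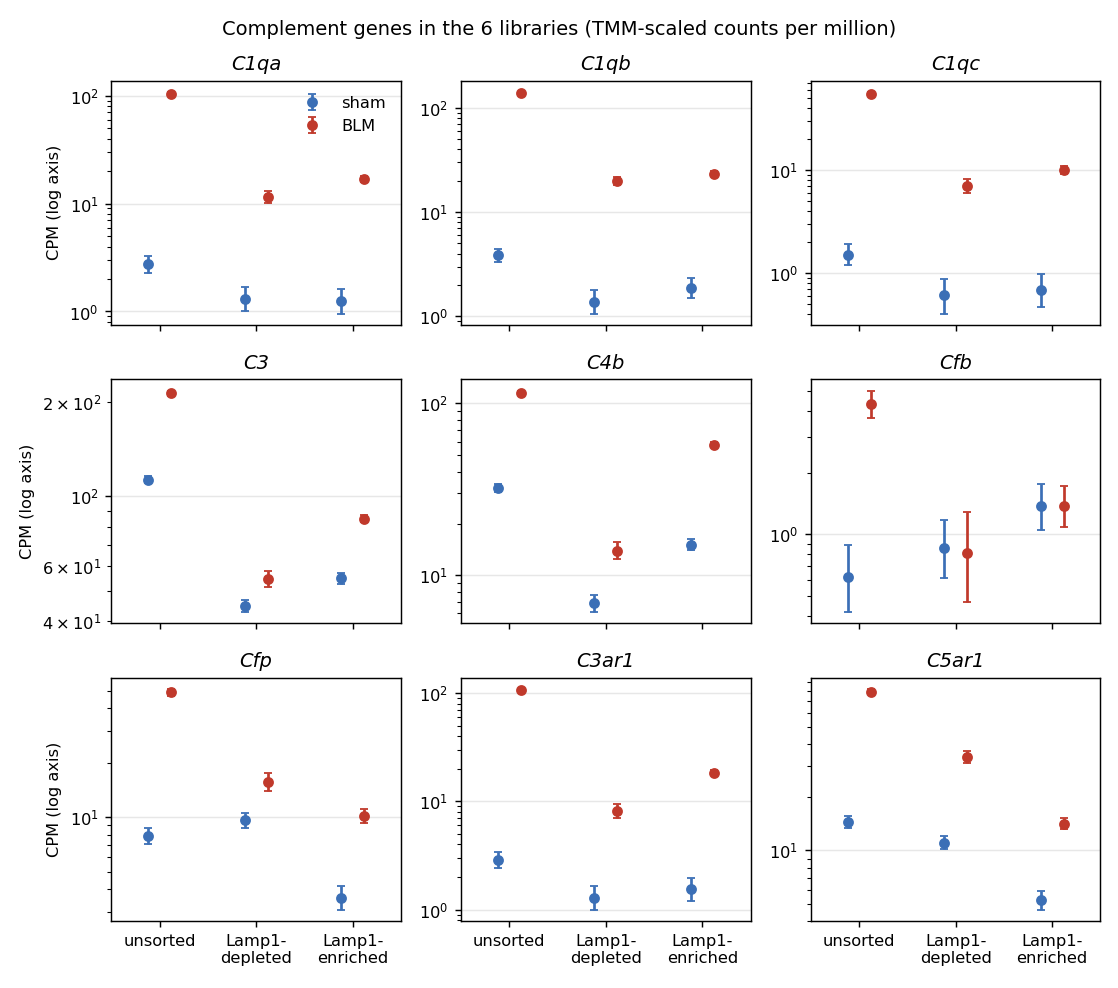
TMM-scaled CPM (log axis, a separate scale for each gene) of the 9 complement genes in unsorted, Lamp1-depleted and Lamp1-enriched cells of sham-treated (blue) and BLM-treated (red) mice, 1 library a point, with 95% Poisson intervals that cover counting error only. The BLM unsorted library is the highest of the 6 for all 9 genes, and for every gene but Cfb the red point lies above the blue one in each fraction (with total counts in place of TMM, C3 and Cfp in Lamp1-depleted cells do not).

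The proportions of the chains to each other were compared by their shares of C1q reads. Reads of the 3 genes together numbered 394 in sham unsorted and 11757 in BLM unsorted cells. C1qb took 41.7% to 51.7% of them over the 6 libraries, C1qa 30.0% to 39.7% and C1qc 18.2% to 20.0%. C1qc took 18.8% (exact 95% binomial interval 15.0 to 23.0) in sham unsorted and 18.4% (17.7 to 19.2) in BLM unsorted cells, so a difference in its share was not detectable. The shares of the other chains differed beyond their intervals between 2 of the BLM libraries, C1qa taking 35.1% (34.2 to 36.0) in unsorted and 30.0% (26.9 to 33.3) in Lamp1-depleted cells, and C1qb 46.5% (45.6 to 47.4) and 51.7% (48.2 to 55.2). Per kb of exon, C1qc was at 0.251 to 0.328 of the level of C1qa in every library, and C1qb at 1.004 to 1.65 of it.

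In the sorted fractions the C1q ratios were smaller but still large. In Lamp1-enriched cells the BLM-over-sham log2 ratio was 3.75 for C1qa, 3.64 for C1qb and 3.85 for C1qc. In Lamp1-depleted cells it was 3.12, 3.84 and 3.49. The ratio of C1qa in unsorted cells exceeded that in Lamp1-depleted cells by 2.12 (1.65 to 2.60) and that in Lamp1-enriched cells by an amount with an interval of 1.04 to 1.96, both beyond counting error. Between the sorted fractions (enriched minus depleted) the C1qa ratios differed by 0.62 (0.06 to 1.18), beyond counting error, while those of C1qb differed by −0.20 (−0.69 to 0.30) and those of C1qc by 0.36 (−0.42 to 1.13), within it.

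C4b, the mouse C4 that is cleaved to form the classical and lectin C3 convertase, had a pattern of its own. It was at 32.3, 6.87 and 15.1 CPM in the sham libraries (unsorted, depleted and enriched, in that order) and at 115, 13.9 and 57.5 CPM in the BLM libraries. In each treatment it was lowest in Lamp1-depleted cells, and the BLM Lamp1-depleted value lay below the sham unsorted value. The BLM Lamp1-depleted (12.4 to 15.6) and sham Lamp1-enriched (14.0 to 16.3) values overlapped in counting error. BLM over sham, C4b was higher by a log2 ratio of 1.84 (1.76 to 1.92) in unsorted, 1.93 (1.81 to 2.05) in Lamp1-enriched and 1.02 (0.78 to 1.25) in Lamp1-depleted cells. Unsorted and Lamp1-enriched cells differed in this ratio by −0.09 (−0.23 to 0.06), within counting error, and Lamp1-enriched exceeded Lamp1-depleted cells by 0.91 (0.65 to 1.17). C4b shares 15.2% of its 100-base exon stretches with C4a, its near-identical neighbour, so its count is uncertain to that extent.

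Of the alternative pathway genes, Cfp and Cfb were over 2-fold higher with BLM in unsorted cells and C3 was not. C3, the protein on which all pathways converge, was at 113, 44.7 and 54.7 CPM in the sham libraries (unsorted, Lamp1-depleted, Lamp1-enriched) and at 213, 54.5 and 85.0 CPM in the BLM libraries. The sham unsorted library lay above both sorted BLM libraries. Its BLM-over-sham log2 ratio was 0.92 (0.87 to 0.96) in unsorted, 0.64 (0.57 to 0.71) in Lamp1-enriched and 0.29 (0.18 to 0.39) in Lamp1-depleted cells, none of them 2-fold. Cfp was at 7.91, 9.63 and 3.59 CPM in the sham libraries and at 48.8, 15.7 and 10.2 CPM in the BLM libraries. The lowest BLM value of Cfp (Lamp1-enriched, 9.33 to 11.05) overlapped its highest sham value (Lamp1-depleted, 8.75 to 10.6) in counting error. With total counts in place of TMM both sorted BLM values (10.9 and 10.5 CPM) lay below sham Lamp1-depleted cells (11.1 CPM). In sorted cells Cfp was higher in the Lamp1-depleted fraction of each treatment. The BLM-over-sham log2 ratio of Cfp was 2.62 (2.47 to 2.79) in unsorted and 0.70 (0.49 to 0.91) in Lamp1-depleted cells. In Lamp1-enriched cells Cfp was 2.83-fold higher with BLM, with an interval of 1.25 to 1.76 on the log2 scale.

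Cfb had 17 to 171 reads and was, over all its 2825 exon bases, the lowest of the 9 genes per kb of exon in 4 of the 6 libraries. It was at 0.618, 0.855 and 1.37 CPM in the sham libraries and at 4.33, 0.805 and 1.38 CPM in the BLM libraries. Only unsorted cells showed a difference beyond counting error, a log2 ratio of 2.79 (2.24 to 3.42), while the ratio was 0.01 (−0.50 to 0.51) in Lamp1-enriched and −0.09 (−1.003 to 0.77) in Lamp1-depleted cells. The unsorted ratio exceeded the enriched one by 2.78 (2.04 to 3.52). The annotation places 79.5% of the exon bases of Cfb inside a readthrough gene with C2, Gm20547, which was at 0 reads in all 6 libraries. How the counting treated these shared bases is not given in the sources used here, so the Cfb count may rest on the remaining 579 bases. Per kb of those bases, a length chosen after the values were seen, Cfb was at 1.07 CPM in sham unsorted cells, above C1qc and C3ar1, and at rank 7 of the 9 genes there. It was at rank 4 in the depleted and rank 3 in the enriched sham library, and stayed at rank 9 in the 3 BLM libraries.

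The 2 receptors differed from each other. C3ar1 was at 2.86, 1.29 and 1.54 CPM in the sham libraries and at 106, 8.24 and 18.5 CPM in the BLM libraries. C5ar1, the C5a receptor of neutrophils and macrophages, was at 14.5, 11.1 and 5.22 CPM in the sham libraries and at 79.4, 33.8 and 14.2 CPM in the BLM libraries. For C3ar1 all BLM values lay above all sham values, whereas the BLM Lamp1-enriched value of C5ar1 lay just below its sham unsorted value. The BLM-over-sham log2 ratio of C3ar1 was 5.21 (4.97 to 5.47, 37.0-fold) in unsorted, 3.58 (3.24 to 3.95) in Lamp1-enriched and 2.66 (2.24 to 3.12) in Lamp1-depleted cells. That of C5ar1 was 2.45 (2.33 to 2.57), 1.44 (1.23 to 1.66) and 1.61 (1.44 to 1.78). Between the sorted fractions (enriched minus depleted) this ratio differed by 0.92 (0.37 to 1.47) for C3ar1, beyond counting error, and by −0.17 (−0.43 to 0.10) for C5ar1, within it.

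**Figure D2:**
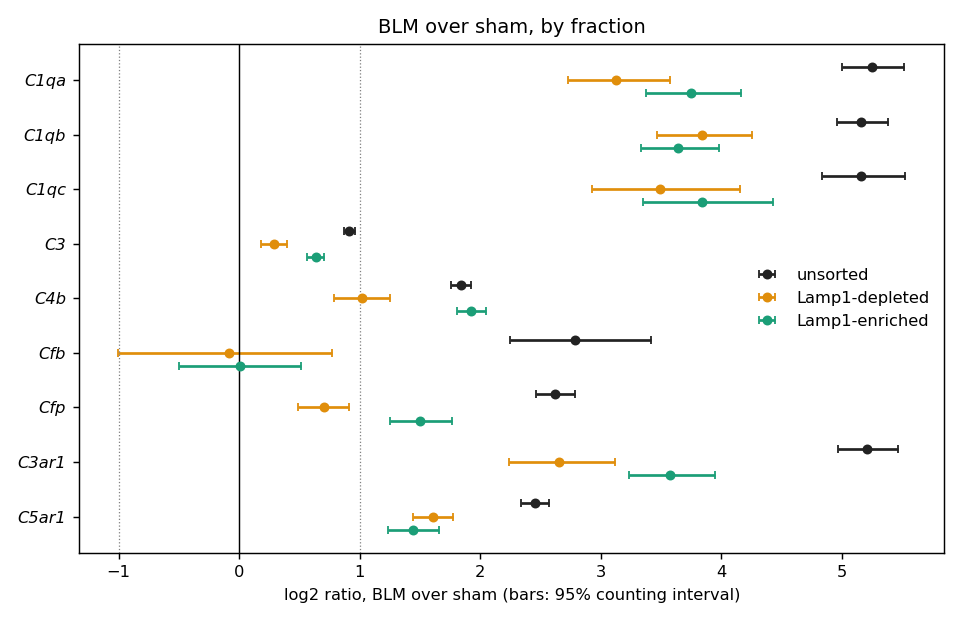
Log2 ratio of BLM over sham for the 9 complement genes in unsorted (black), Lamp1-depleted (orange) and Lamp1-enriched (green) cells, with 95% counting intervals, 1 library against 1. Dotted lines mark 2-fold. The C1q chains and C3ar1 are the farthest to the right in each fraction (log2 ratios of 2.66 to 5.25), and the unsorted ratio is the highest of the 3 for every gene but C4b.

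Counted at 2-fold, 8 of the 9 genes were higher and 0 lower in BLM unsorted cells, C3 being the exception, where 13.9% of all genes tested were higher and 16% lower. In Lamp1-enriched cells 7 of 9 were higher and 0 lower (10.2% and 7.86% of all genes), and in Lamp1-depleted cells 6 of 9 were higher and 0 lower (13.7% and 22.3%). The median log2 ratio of the 9 genes was 2.79, 1.93 and 1.61 in these 3 comparisons, and that of all genes −0.07, 0.00 and −0.20. The Lamp1-depleted counts rest on the BLM library that stood apart. With total counts in place of TMM every ratio shifted by −0.72 in that pair and by −0.26 in unsorted cells, and 4 of the 9 genes, the C1q chains and C3ar1, were then 2-fold higher in Lamp1-depleted cells, with C3 at −0.43 and Cfp at −0.02. With total counts that left out Gm26917, C3 was at 0.21 and Cfp at 0.63 there.

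To ask whether the BLM difference held across the fractions, the edgeR quasi-likelihood test was fitted to all 6 libraries with fraction as a block. Its error term is the disagreement between fractions and not the spread between mice. As far as the sources say, the fractions come from the same pooled lungs. The test draws this disagreement towards a trend over all genes, so a gene's p-value rests largely on the spread of other genes. Of the 9 genes, 7 rose and 0 fell at a Benjamini-Hochberg adjusted p under 0.05, where 2.85% of 21906 genes rose and 1.73% fell. All 9 estimates were above 0, so that 0 were lower at an unadjusted p under 0.05 as well, and the DESeq2 Wald test of the same model also called 7 higher and 0 lower. The C1q chains rose by 4.12 to 4.28 on the log2 scale (SE 0.35 to 0.40, edgeR adjusted p 0.00054 to 0.000726), and C3ar1 by 3.90 (SE 0.44, edgeR adjusted p 0.0012). C5ar1 rose by 1.89 (SE 0.28, edgeR adjusted p 0.00384), C4b by 1.65 (SE 0.26, edgeR adjusted p 0.00552) and Cfp by 1.66 (SE 0.35, edgeR adjusted p 0.0219). Each of these 7 genes was higher with BLM in 3 of 3 fractions, apart from Cfp under total counts. C3 had an estimate of 0.66 (SE 0.24, edgeR adjusted p 0.159) and Cfb one of 0.94 (SE 0.61, edgeR adjusted p 0.434), and neither passed. Without the Lamp1-depleted libraries the same 7 genes passed, and without the unsorted libraries 6 did, Cfp being at 1.18 with an edgeR adjusted p of 0.0785.

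The order of levels per kb of exon changed between sham and BLM unsorted cells. In sham unsorted cells C3 was the highest at 22.0 CPM per kb, followed by C4b (5.67) and C5ar1 (5.64), whose counting intervals overlapped, Cfp (4.56), C1qb (3.54) and C1qa (2.63), which overlapped, C1qc (0.789) and C3ar1 (0.665), which overlapped, and Cfb (0.219 over all its exon bases). In BLM unsorted cells C1qb was the highest at 127 CPM per kb, followed by C1qa (101), C3 (41.5), C5ar1 (30.9), C1qc (28.5) and Cfp (28.1), which overlapped, C3ar1 (24.7), C4b (20.3) and Cfb (1.53). C1qb thus stood at rank 5 in sham and rank 1 in BLM unsorted cells, and C3 at rank 1 and rank 3. C1qb was also the highest in both sorted BLM fractions, and C3 in both sorted sham fractions.

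Macrophage and monocyte markers moved with the BLM libraries, and their values are set beside the complement genes. All 10 markers on the list were 2-fold higher in BLM unsorted cells, with a median log2 ratio of 2.79 (range 1.05 for Mertk to 3.90 for Fcgr1), and their summed level went from 2320 to 18753 CPM. The C1q chains and C3ar1 lay above all 10 markers. Cfb, Cfp, C5ar1 and C4b lay within the range of the markers, and C3 below it. In Lamp1-enriched cells 6 of 10 markers were higher (median 1.26, summed level 1014 to 2470 CPM), and in Lamp1-depleted cells 0 of 10 were (median 0.02, summed level 1649 to 2702 CPM).

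**Figure D3:**
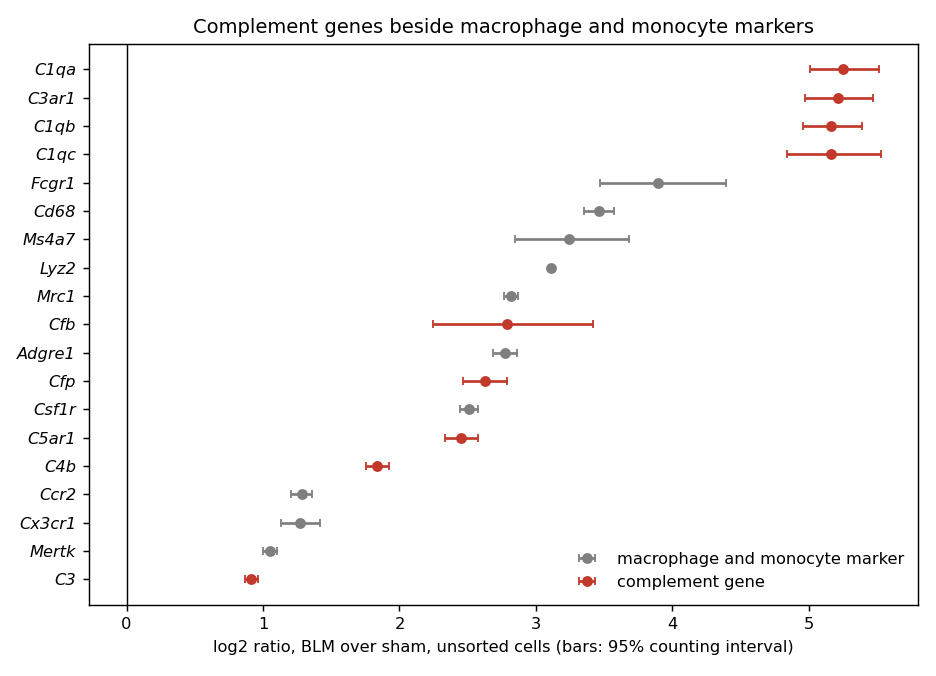
Log2 ratio of BLM over sham in unsorted cells for the 9 complement genes (red) and 10 macrophage and monocyte marker genes (grey), sorted by ratio, with 95% counting intervals. The C1q chains and C3ar1 (5.16 to 5.25) lie to the right of the highest marker, Fcgr1 (3.90), and C3 (0.92) to the left of the lowest, Mertk (1.05).

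Set against the mean log2 level of the 10 markers in the same library, a quantity that the scaling between libraries does not affect, C1qa was 6.54-fold higher in BLM than in sham unsorted cells, 6.39-fold in Lamp1-enriched and 8.53-fold in Lamp1-depleted cells. C3ar1 was 6.37-, 5.66- and 6.16-fold higher on the same measure. C1qb was 6.16-, 5.91- and 14.0-fold higher, and C1qc 6.18-, 6.87- and 11.1-fold higher. For these 4 genes the relative difference was above 5-fold in each fraction. Cfp was at 1.06-, 1.34- and 1.57-fold, and C5ar1 at 0.939-, 1.28- and 2.96-fold, in the same order. Relative to the markers, C4b was lower with BLM in unsorted cells, at 0.613-fold, and higher with BLM in both sorted fractions, at 1.80- and 1.96-fold. C3 was at 0.323-, 0.733- and 1.18-fold, and Cfb at 1.20-, 0.474- and 0.910-fold. The part of macrophage number in these results was not tested.

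Markers of other cells moved as well. All 6 tested neutrophil markers were 2-fold higher in BLM than in sham Lamp1-depleted cells (median log2 ratio 2.76, summed level 50.8 to 354 CPM), where C5ar1 was higher by 1.61. In unsorted cells, where C5ar1 was higher by 2.45, 1 of 6 tested neutrophil markers was 2-fold higher (median 0.10). In Lamp1-enriched cells, where C5ar1 was higher by 1.44, 3 of 7 were (median 0.87). Of 6 fibroblast markers, 3 were 2-fold higher in BLM Lamp1-enriched cells (median 1.56, summed level 215 to 934 CPM), where C4b was higher by 1.93. In Lamp1-depleted cells, where C4b was higher by 1.02, 3 of the 6 were higher and 3 lower (median −0.02). In unsorted cells, where C4b was higher by 1.84, 3 were higher and 1 lower (median 0.58). Alveolar macrophage markers were 2-fold higher for 5 of 7 and lower for 1 in BLM unsorted cells (median 1.41, summed level 592 to 2173 CPM). The part of these cells in the results was not tested.

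The sort by surface Lamp1 separated C4b from Cfp and C5ar1 and left the C1q chains within 2-fold under TMM scaling. In sham cells C4b was higher in the Lamp1-enriched library by a log2 ratio of 1.14 (0.94 to 1.33), and Cfp and C5ar1 were at −1.42 (−1.69 to −1.16) and −1.08 (−1.31 to −0.86). In BLM cells C4b was at 2.05 (1.87 to 2.22), Cfp at −0.62 (−0.82 to −0.42) and C5ar1 at −1.25 (−1.40 to −1.11). The C1q chains were between −0.06 and 0.43 in sham cells, all with intervals that held 0. In BLM cells none of their intervals held 0, with C1qa at 0.56 (0.35 to 0.77), C1qb at 0.23 (0.07 to 0.39) and C1qc at 0.52 (0.26 to 0.79). C3ar1 was at 0.25 (−0.26 to 0.78) in sham and 1.17 (0.93 to 1.41) in BLM cells. C3 was at 0.29 and 0.64, and Cfb at 0.67 and 0.76.

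**Figure D4:**
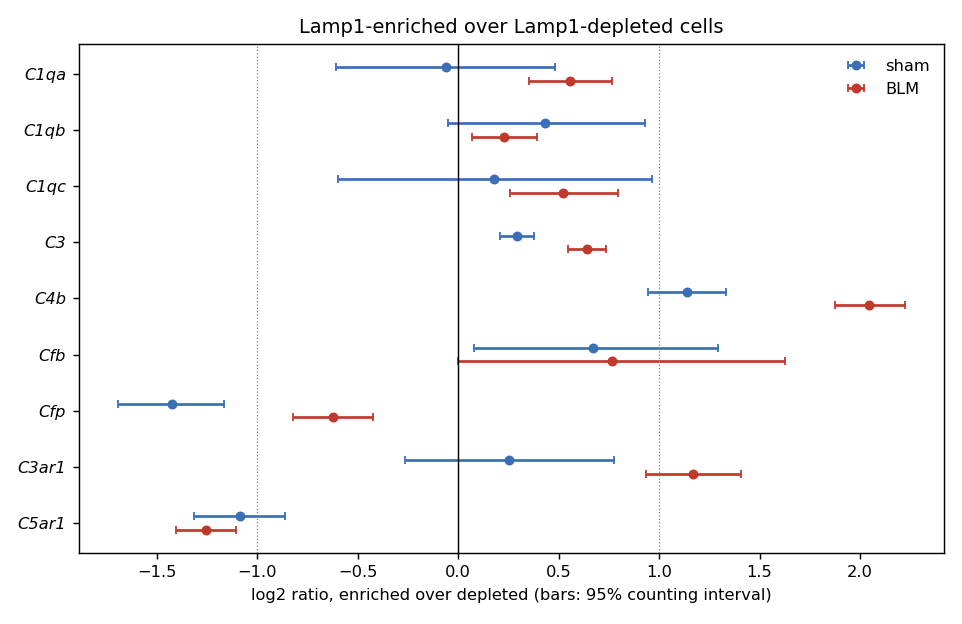
Log2 ratio of Lamp1-enriched over Lamp1-depleted cells for the 9 complement genes in sham-treated (blue) and BLM-treated (red) mice, with 95% counting intervals, 1 library against 1. Dotted lines mark 2-fold. C4b lies right of 0 and Cfp and C5ar1 left of 0 in both treatments, and C3ar1 passes 2-fold with BLM (1.17) and not with sham (0.25).

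At 2-fold, 1 of the 9 genes was higher in sham Lamp1-enriched than Lamp1-depleted cells (27.5% of all genes) and 2 were lower (25.2%), and in BLM cells 2 were higher (34.3%) and 1 lower (22.6%). These counts depended on the scaling. With total counts in place of TMM, every ratio of the BLM pair moved up by 0.56, and 6 of the 9 genes (C1qa at 1.12, C1qc at 1.08, C3, C4b, Cfb and C3ar1) were then higher and 0 lower. In the edgeR quasi-likelihood test over the 4 libraries of sorted cells, treatment was the block. Its error term is the disagreement of the sorting effect between treatments, with 1 residual degree of freedom, and not the spread between mice. This disagreement was drawn towards a trend over all genes, so a gene's p-value rests almost wholly on other genes. By this test 1 of 9 genes was higher in Lamp1-enriched cells (21.5% of 20593 genes) and 2 were lower (19.2%). C4b was higher by 1.497 on the log2 scale (SE 0.36, edgeR adjusted p 0.000175), and C5ar1 and Cfp were lower, at −1.27 (SE 0.37, edgeR adjusted p 0.00246) and −1.12 (SE 0.41, edgeR adjusted p 0.0179), each in 2 of 2 treatments. With total counts both kept a negative estimate and lost the call (−0.98 with an edgeR adjusted p of 0.322 for C5ar1, and −0.83 with 0.446 for Cfp). The C1q chains had estimates of 0.17 to 0.27 (edgeR adjusted p 0.691 to 0.791). In the same sorted pairs the fibroblast markers were higher in Lamp1-enriched cells, 4 of 6 in sham (median 1.49) and 6 of 6 in BLM (median 2.41), while the macrophage and monocyte markers went both ways. Of these 10, 5 were lower and 1 higher in sham (Mertk, 2.64; median −1.27), and 2 were lower and 3 higher in BLM (Mertk 2.09, Mrc1 1.15 and Ms4a7 1.07; median −0.13).

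With BLM, every one of the 9 genes was higher in unsorted cells than in both sorted fractions. The log2 ratio of unsorted cells over the higher sorted fraction was 2.61 for C1qa (2.51 to 2.72), 2.56 for C1qb, 2.44 for C1qc and 2.52 for C3ar1. It was 1.65 for Cfb, 1.64 for Cfp, 1.33 for C3, 1.23 for C5ar1 and 1.01 for C4b (0.94 to 1.07). Thus under TMM scaling all 9 genes were 2-fold above both fractions and 0 below, where 8.48% of all genes were above and 27% below. With total counts C4b was at 114.7 CPM in BLM unsorted and 59.2 CPM in BLM Lamp1-enriched cells, which is under 2-fold. In sham cells 5 of the 9 were 2-fold above both fractions, namely the C1q chains, C3 and C4b at 1.04 to 1.12, and Cfb was below at −1.13 (7.23% of all genes above and 20.1% below). C3ar1 was at 0.89, C5ar1 at 0.39 and Cfp at −0.28 in sham cells. Of the 10 macrophage and monocyte markers, 8 were 2-fold above both fractions with BLM (median 1.96) and 1 in sham (median −0.74), and the part of these cells in the result was not tested.

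The rest of complement held genes that rose and genes that fell. Of 42 other complement genes, 31 were tested for the BLM effect by edgeR, and 3 rose and 3 fell at an adjusted p under 0.05, where 2.85% of all genes rose and 1.73% fell. The median estimate of the 31 was −0.28, against 1.89 for the 9 genes and −0.04 for all genes. Those that rose were Fcna, a ficolin of the lectin pathway made by macrophages among other cells (3.95, SE 0.74, edgeR adjusted p 0.013), Itgax, the alpha chain of complement receptor 4 (2.31, edgeR adjusted p 0.0133), and C5ar2, the second C5a receptor (2.22, edgeR adjusted p 0.00509). Those that fell were Vtn, or vitronectin, an inhibitor of the terminal complex (−2.83, edgeR adjusted p 0.00303), Hc, which encodes C5 (−1.47, edgeR adjusted p 0.0128), and C7, a component of the terminal complex (−1.19, edgeR adjusted p 0.0262). C5ar2, Hc and C7 are named because they passed the test, a choice made after their values were seen.

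Fcna had 7, 2 and 3 reads in the sham libraries (unsorted, depleted, enriched) and 209, 5 and 28 reads in the BLM libraries. Its unsorted log2 ratio of 5.09 (4.13 to 6.53) rests on 7 sham reads. Itgax was at 68.0, 54.2 and 17.5 CPM in the sham libraries and at 802, 99.5 and 88.7 CPM in the BLM libraries. Both were thus highest in BLM unsorted cells, as the 9 genes were. Hc went the other way, from 79.4, 7.87 and 43.9 CPM in the sham libraries, in the same order, to 19.9, 3.88 and 15.6 CPM with BLM. C7 went from 109, 19.7 and 52.1 CPM to 35.1, 7.72 and 31.6 CPM. Vtn went from 6.67, 0.855 and 7.17 CPM to 0.989, 0.0947 and 0.972 CPM, the BLM Lamp1-depleted value being 2 reads.

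**Figure D5:**
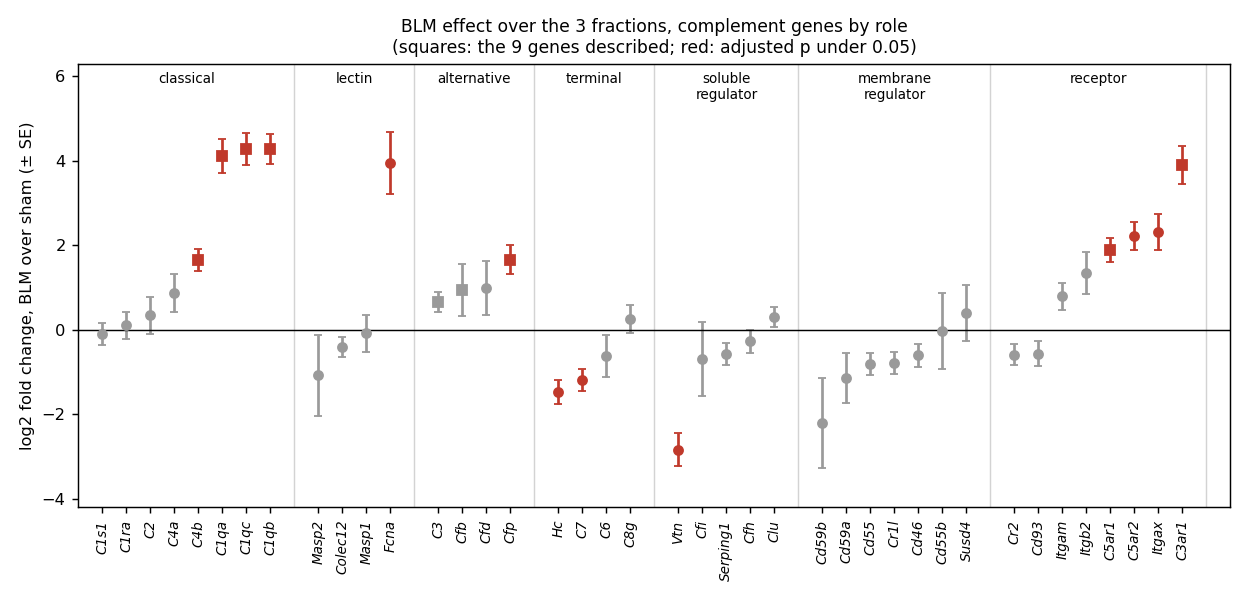
Log2 fold change of BLM over sham over the 3 fractions (edgeR, ± SE) for the 9 genes described (squares) and 31 other complement genes (circles), grouped by role. Red marks an adjusted p under 0.05. The C1q chains, Fcna and C3ar1 are the highest (3.90 to 4.28), and Vtn (−2.83) is the lowest of the genes that passed.

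By role, in unsorted cells, 5 of 7 other receptors were 2-fold higher with BLM and 0 lower (median log2 ratio 1.56). Among all genes 13.9% were 2-fold higher and 16% lower. Of the 5 receptors, 1 had 16 BLM and 8 sham reads, with an interval that held 0 (−0.009 to 2.73). Of the 4 tested genes of the terminal pathway 3 were lower and 0 higher (median −1.44), and of 6 soluble regulators 2 were lower. Of these 2 regulators, 1 had 4 BLM and 11 sham reads, with an interval that held 0 (−3.27 to 0.59). Of 7 membrane regulators 1 was lower, with 0 BLM and 29 sham reads, and 0 of the 4 other classical genes passed 2-fold in either direction. Of 5 tested lectin pathway genes 1 was higher (Fcna) and 1 lower, the latter with 0 BLM and 17 sham reads. The single other alternative gene, which encodes factor D, was higher (2.07). In all, 7 of the 34 tested were higher and 7 lower (median −0.30). In the same pair 4 of 5 alveolar type 2 markers were 2-fold lower, among them Sftpc (−2.98) and Lamp3 (−2.46), with a median of −2.30 and a summed level that went from 1223 to 305 CPM. Of the 6 fibroblast markers 3 were higher and 1, Pdgfra, was lower (−1.61), with a summed level of 439 and 907 CPM. The part of these cells in the results was not tested.

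The sorting test was also read for the other complement genes, with p-values that do not measure the spread between mice. Of the 30 tested, 13 were higher in Lamp1-enriched cells and 6 lower at an edgeR adjusted p under 0.05 (median estimate 1.39, against 0.27 for the 9 genes and 0.03 for all genes), where 21.5% of all genes were higher and 19.2% lower. Soluble regulators were higher for 4 of 5, among them Clu, or clusterin (3.24, edgeR adjusted p 3.47e-16), and Vtn (3.07, edgeR adjusted p 6.07e-05). Cd93, first described as a C1q receptor and found on endothelium and myeloid cells, was higher by 3.49 (edgeR adjusted p 3.53e-11), and Cd59a, which blocks the membrane attack complex, had an estimate of 4.41 (edgeR adjusted p 0.000109). Cd59a was at 0 reads in BLM Lamp1-depleted cells, so that estimate depends on the prior count; taken at a floor of 3 reads there, it was at least 7.23-fold higher in BLM Lamp1-enriched cells. Lower were Cd55, decay-accelerating factor (−4.38, edgeR adjusted p 1e-20), and Cr2, the complement receptor 2 of B cells (−3.94, edgeR adjusted p 1.62e-20). Cd55 was at 870 CPM in sham and 504 CPM in BLM Lamp1-depleted cells against 51.1 and 22.7 CPM in Lamp1-enriched cells. In the same pairs the endothelial markers were higher in Lamp1-enriched cells (6 of 6 in both treatments, medians 3.03 and 3.45) and the B cell markers lower (4 of 4 in both, medians −4.15 and −3.43), and their part in these values was not tested.

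Genes of most similar pattern were sought for each of the 9 genes among 15576 genes with at least 100 reads in the highest library, by the root mean square difference of centred log2 CPM over the 6 libraries. The C1q chains and C3ar1 had each other as nearest genes. For C1qa these were C1qc (0.12), C1qb (0.21) and C3ar1 (0.24), and for C1qb the nearest was C1qc (0.12). For C3ar1 they were C1qa (0.24), C1qc (0.30) and Fcna (0.35). For C5ar1 they were Rbm47 (0.21), Clec4d (0.21), a C-type lectin of myeloid cells, and Ptafr (0.21), the receptor for platelet-activating factor. Those of C4b were Cyp1b1 (0.17), Ebf3 (0.24) and Adamts2 (0.24), a procollagen protease. Those of Cfp were Naaa (0.13), Dlgap5 (0.14) and Atp10a (0.16), those of C3 were Dtx4 (0.22), P2rx5 (0.22) and Dbi (0.23), and those of Cfb were Naglu (0.32), Gusb (0.33), both lysosomal hydrolases, and Arhgap19 (0.35). The genes nearest to C4b, Cfp, C3, Cfb and C5ar1 were thus not members of the group. These distances describe 6 libraries and carry no test.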

How the data were processed

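RNA was sequenced from 6 conditions of mouse lung cells, 1 library each. The deposited values were raw read counts per gene, not normalized by the authors. Per the labels and the submitters' processing notes, Trimmomatic 0.36, STAR 2.5.2b, featureCounts (Subread 1.5.2) and the GRCm38 build were used, and DESeq2 was named. The strand setting and annotation release are not given in the sources used here. Gene positions came from GENCODE M21. TMM factors and the quasi-likelihood tests used edgeR 4.0.16 under R 4.3.3 (filterByExpr, Benjamini-Hochberg adjustment over all genes tested, threshold 0.05). The SE printed with an edgeR estimate was derived from the test, as the size of the estimate over the square root of its F statistic. The sorting test had 1 and the BLM test 2 residual degrees of freedom, and where nothing gives separate animals p-values measure only the spread between these libraries. In both tests that spread was drawn towards a trend over all genes, so p-values rest largely on genes other than the one tested. In the sorting test they rest almost wholly on those. Log2 ratios used a prior count of 0.5, genes that reached 10 reads in either library, and Clopper-Pearson 95% intervals that cover counting error only. Differences of a ratio between fractions carry 95% intervals by a normal approximation from the read counts, also for counting error only. Scripts were tested on simulated data. The 9 genes and all lists were chosen with earlier results of these data known. Other complement genes could be named at an 8-fold difference in any comparison with 50 reads or more in the higher library. Itgb2, Cd55b, Cd59b and Susd4 also met this rule and were not described above. Itgb2 was at a log2 ratio of 3.15 for BLM over sham in unsorted cells (BLM test, edgeR adjusted p 0.173). In the sham sort Cd55b was at −4.79, Cd59b at 3.84 and Susd4 at 3.71 (sorting test, edgeR adjusted p 0.00374, 0.0165 and 0.0526). The lower libraries of Cd55b and Cd59b held 2 and 3 reads. The 3 nearest genes of each of the 9 were named by pattern. Other scalings, filters, thresholds, thinning and DESeq2 1.42.0 were tried as alternatives. No column of values was left out.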

Additional observations from a re-analysis of the deposited data

How the results depend on the processing

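The tests paired libraries through the block, fraction in the BLM test and treatment in the sorting test, and no replicate numbers pair libraries beyond that, since each condition has 1 library. The 174 recomputed counts and calls of the main comparisons stayed within 1.5 times in 140 cases and moved in 34. In the BLM test, C1qa, C1qb, C1qc, C3ar1, C4b and C5ar1 passed the threshold in 8 of 8 settings and Cfp in 7 of 8. With total counts only, the genes that rose in the BLM test numbered 380 and those that fell 751, with all genes of at least 1 read 1139 and 899, and with the DESeq2 Wald test 1077 and 723. With total counts only the sorting test called 2872 genes higher, 1564 lower and 0 of the 9 genes lower, and with all genes of at least 1 read 1 of the 9 was lower. The C1qc sorting estimate turned to −0.032 when counts were thinned to the smallest library (edgeR adjusted p 0.968). Of the 2-fold counts among the 9 genes, total counts gave 0 higher in the sham sort, 6 higher and 0 lower in the BLM sort, and 0 lower for sham unsorted cells against both fractions. Total counts without Gm26917 gave 0 higher in the sham sort and 0 lower for sham unsorted cells. The cause was not tested, other than that total counts shift every gene of a library by the same amount. At a log2 ratio of 2, by construction lower, 4 were higher with BLM in Lamp1-enriched cells, 0 higher and 0 lower in the sham sort, 1 and 0 in the BLM sort, 0 and 0 for sham unsorted cells against both fractions, and 4 above both fractions in BLM. At a log2 ratio of 3, 4, 4 and 3 were higher with BLM in unsorted, Lamp1-enriched and Lamp1-depleted cells, and 0 in either direction in the sort and against both fractions. With 1 library per condition no value bears on the spread between mice. The ratios of Cfb rest on 17 to 171 reads, and the effect of the exon bases it shares with Gm20547 on its count was not measured.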
